A study of Mus musculus with 2 samples.

Results

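The 10 genes described here build and crosslink elastic fibres: Eln, Fbn1, Fbn2, Lox, Loxl1, Loxl2, Fbln5, Ltbp1, Ltbp2 and Mfap5. Their chromatin was followed in 2 deposited lists of ATAC-seq peaks, each called unique to its cell population by the authors. A peak was taken when its centre lay in or within 100 kb of the mm10 span of a gene. This gave 46 of 22485 peaks, 31 of 14483 in the CD137 list and 15 of 8002 in the PDGFRα list, at 10 of 21887 protein-coding genes.

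ATAC-seq uses a transposase that inserts adapters into open DNA, so a peak marks an accessible site. Both populations were adipose progenitors of C57BL/6 mice, separated with magnetic beads (MACS) from SAT or VAT, exposed to an adipogenic cocktail and then to the glucocorticoid dexamethasone at 1 µM. The CD137+ group carried the protein of Tnfrsf9, a marker used for beige progenitors, and the PDGFRα+ group (also labelled CD140+) carried a receptor found on stromal progenitors. Each group was 1 library, without replicates. No sample without dexamethasone was analysed here, and the depot of each group is not given in the labels. Their extraction text describes embryonic material, which does not match an adipose sample.

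The elastic fibre is a core of crosslinked elastin on a scaffold of microfibrils. Fibrillins form the microfibrils, latent TGF-beta binding proteins and small microfibril-associated proteins attach to them, fibulins help to place elastin, and lysyl oxidases crosslink it. Fat tissue holds such fibres in its stroma, where fibroblast-like progenitors are a main source of matrix.

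The lists hold positions, an Ensembl gene ID and a class (exon, intron, up5k, down5k or intergenic), with no height, score or read number, so the depth is unknown. A listed site may be open in more cells or more open in each cell, and these cannot be told apart. The lists hold only peaks that the authors call unique, so the absence of a unique peak at a gene does not show closed chromatin. The rule for unique peaks is not given, so a listed site need not be closed in the other population. The classes up5k and down5k followed the coordinate and not the strand. At isolated minus-strand genes, 189 of 190 such peaks on the lower-coordinate side were classed up5k, as were 113 of 113 at plus-strand genes. An up5k peak is therefore read here as lying at the lower-coordinate end of a gene, and not as a promoter peak.

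Of the 10 genes, 9 had a unique peak in or within 100 kb, as had 79.4% of all protein-coding genes. Peaks of both lists lay at 6 genes (Eln, Fbn1, Fbn2, Loxl1, Ltbp1 and Ltbp2), CD137 peaks only at Mfap5, PDGFRα peaks only at Lox and Fbln5, and none at Loxl2. CD137 peaks were thus found at 7 of 10 genes, where 66.8% of all protein-coding genes had one, and PDGFRα peaks at 8 of 10, where 56% had one. For peaks of both lists the background was 43.4%, and for no peak 20.6%. The CD137 share of the 46 peaks was 67.4% (exact 95% binomial interval 52.0 to 80.5%, counting error only), and that of all peaks was 64.4%. Neither the number of genes reached nor this share stands out from the background. The median number of CD137 peaks per gene was 2.5, against 1 over all protein-coding genes, and that of PDGFRα peaks was 1 against 1. The 10 genes are long, with a median of 79.8 kb against 17.2 kb, so their windows also hold more sequence. Per Mb of window, there were 9.85 CD137 and 4.77 PDGFRα peaks at the members. Over the windows of all protein-coding genes there were 6.05 and 3.66. What underlies this difference was not tested.

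Inside the genes the CD137 list was the larger by more. The spans held 19 CD137 and 5 PDGFRα peaks, a CD137 share of 79.2% (57.8 to 92.9%). All peaks in spans of protein-coding genes had a share of 61.9%, which lies in that interval. In the flanks the lists were closer, with 12 CD137 and 10 PDGFRα peaks. Per Mb of span, the members carried 16.55 CD137 and 4.36 PDGFRα peaks, against 6.43 and 3.96 over all protein-coding spans. Ltbp1 alone gave 9 of the 19 CD137 peaks. Without it the counts were 10 and 3, a share of 76.9% (46.2 to 95%), and the density of CD137 peaks was 13.15 per Mb. In each of the 5 genes with a peak in the span, CD137 peaks were present, whereas PDGFRα peaks were present in 3 of them. Over all protein-coding genes, 17.3% had a CD137 peak in the span, 13.2% a PDGFRα peak and 6.41% both. These percentages are over genes of every length, with a median of 17.2 kb against 79.8 kb for the members, so they are not matched for length.

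**Figure D1:**
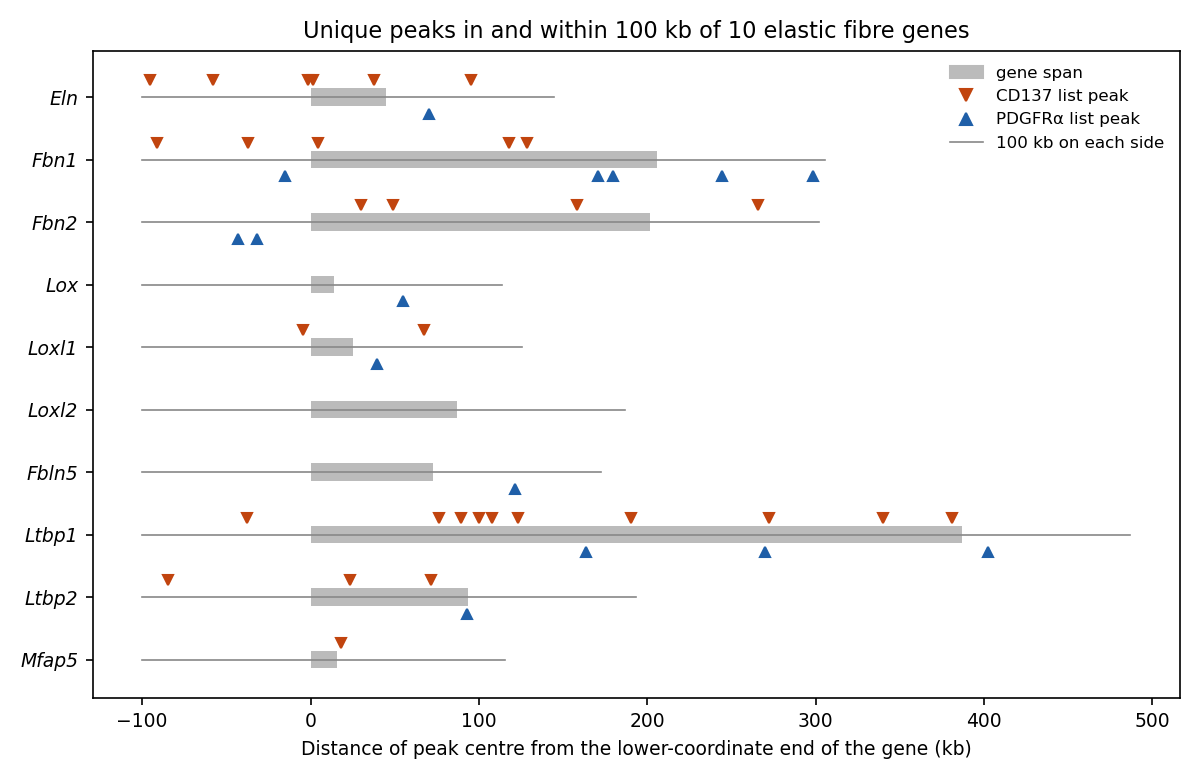
Unique peaks at the 10 genes, by distance of the peak centre from the lower-coordinate end of each gene in kb. Grey bars are gene spans, thin lines reach 100 kb to each side, red triangles above are CD137 peaks and blue triangles below are PDGFRα peaks. The spans hold 19 CD137 and 5 PDGFRα peaks, and Loxl2 has none.

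**Figure D2:**
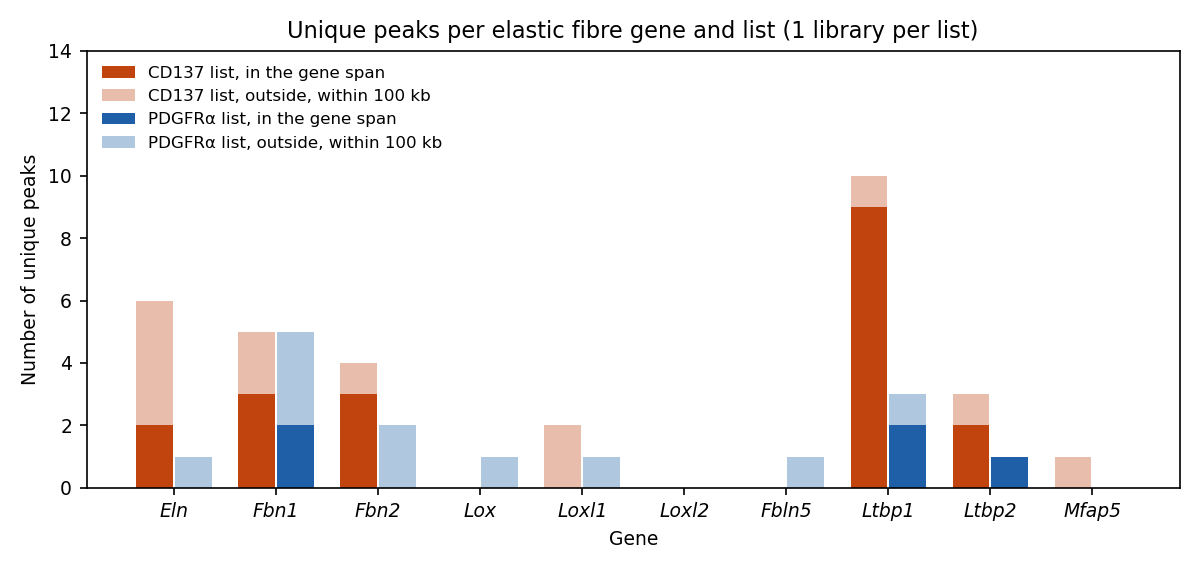
Number of unique peaks per gene and list, with 1 library per list and so no error bars. Dark parts are peaks in the gene span and pale parts are peaks outside it within 100 kb. Ltbp1 reaches 10 CD137 and 3 PDGFRα peaks, Eln 6 and 1, and Fbn1 5 and 5.

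Eln encodes tropoelastin, the soluble precursor of the elastic core, and spans 44.8 kb (chromosome 5, 134702595 to 134747368). It had 6 CD137 peaks and 1 PDGFRα peak within 100 kb, and 2.33% of protein-coding genes, of every length, had 6 or more CD137 peaks. Of these, 3 were annotated to the gene itself (ENSMUSG00000029675). The first, 1176 bp wide and classed up5k, lay 1.6 kb outside the lower-coordinate end at 134700412 to 134701588. The second, in an exon at 134703927 to 134704721, was 794 bp wide, narrower than all but 3.0% of the CD137 list. The third, 1354 bp wide, lay in an intron at 134739926 to 134741280. The first and second are neighbours at one end of the gene, and the third is near its other end. The strand of Eln is not in the promoter table used here, so which end is the start was not assigned.

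The PDGFRα list came no closer to Eln than 25.3 kb, with a peak of 1680 bp at 134771864 to 134773544. A CD137 peak of 866 bp at 134797414 to 134798280, 50.5 kb from the gene, was classed like it as an intron of ENSMUSG00000107318, and Eln was the nearest protein-coding gene to both. On the other side, CD137 peaks lay 57.7 kb away (134644171 to 134645522, 1351 bp, down5k, nearest to Eif4h) and 95.2 kb away (134606585 to 134608125, 1540 bp, down5k, inside Lat2). These 2 peaks have genes nearer to them than Eln and need not belong to it.

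Fbn1 and Fbn2 encode fibrillin-1 and fibrillin-2, the large glycoproteins that form microfibrils. Fbn1 (chromosome 2, 125300594 to 125506485, minus strand, 205.9 kb) had 5 CD137 and 5 PDGFRα peaks. Of protein-coding genes of every length, with a median of 17.2 kb, 1.53% had 5 or more PDGFRα peaks within 100 kb. Genes as long as Fbn1 were not counted apart for this. All 5 peaks in its span were intronic under ENSMUSG00000027204, and the lists did not mix along the gene. Both PDGFRα peaks lay nearer to the start of the gene, 26.2 kb from its upstream end (125479382 to 125481209, 1827 bp) and 35.1 kb from it (125470186 to 125472675, 2489 bp). The 3 CD137 peaks lay further in, at 77.3 kb (125428551 to 125429878, 1327 bp), 87.8 kb (125417902 to 125419460, 1558 bp) and 201.7 kb (125303689 to 125305837, 2148 bp). With 5 peaks this order is a description of the gene and was not tested.

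Outside Fbn1, a PDGFRα peak classed intergenic lay 15.4 kb beyond the 3′ end (125284228 to 125286192, 1964 bp), with Fbn1 as its nearest gene. The other 4 flanking peaks were nearer to, or inside, other genes. On the 3′ side these were CD137 peaks 36.9 kb away by Dut (125262665 to 125264808, 2143 bp, down5k) and 91.0 kb away in an exon of Slc12a1 (125208586 to 125210551, 1965 bp). On the 5′ side they were PDGFRα peaks 38.8 kb away (125544516 to 125546048, 1532 bp, intergenic, nearest to Cep152) and 92.3 kb away in an intron of Cep152 (125598181 to 125599308, 1127 bp).

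Fbn2 (chromosome 18, 58008623 to 58210572, 201.9 kb) was similar in length to Fbn1 and differed in the lists inside it. Its span held 3 CD137 peaks and no PDGFRα peak. They lay in an exon at 58038059 to 58039140 (1081 bp) and in introns at 58056788 to 58058061 (1273 bp) and 58166590 to 58167648 (1058 bp), all under ENSMUSG00000024598. Of 990 protein-coding genes of 200 kb or longer, 13.1% had at least 3 CD137 and no PDGFRα peaks in the span, as Fbn2 had, and 21.5% had at least 3 CD137 and at least 2 PDGFRα peaks, as Fbn1 and Ltbp1 had. Neither pattern is rare among long genes. In the flanks of Fbn2, 2 intergenic PDGFRα peaks lay 31.7 kb (57975988 to 57977773, 1785 bp) and 43.0 kb (57965132 to 57966133, 1001 bp) from its lower-coordinate end, both nearer to Slc12a2. On the other side an intergenic CD137 peak of 1574 bp lay 63.8 kb away at 58273563 to 58275137, with Fbn2 as the nearest gene.

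Ltbp1 encodes a latent TGF-beta binding protein, which holds the inactive growth factor on microfibrils. It is the longest of the 10 genes (chromosome 17, 75005480 to 75392512, plus strand, 387.0 kb) and held 9 CD137 and 2 PDGFRα peaks in its span. Only 0.114% of all protein-coding genes had 9 or more CD137 peaks in the span, and all of those were 300 kb or longer, where the percentage was 4.49%. The 10 CD137 peaks within 100 kb of Ltbp1 were 32.3% of the CD137 peaks of the 10 genes.

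RefSeq gives Ltbp1 a pair of promoter windows, 173.3 kb apart, whose starts lie at 75005529 and 75178781. Between the starts lay 5 CD137 peaks and 1 PDGFRα peak. The 5 CD137 peaks followed each other without a PDGFRα peak between them over 48.4 kb, 76.1 to 123.1 kb after the first start. They lay at 75080747 to 75082499 (1752 bp), 75094083 to 75095503 (1420 bp), 75105061 to 75106342 (1281 bp), 75112597 to 75113586 (989 bp) and 75128071 to 75129134 (1063 bp), all classed intron. In the whole CD137 list, 54 peaks (0.373%) in 10 separate places, Ltbp1 included, formed a run of 5 CD137 peaks in so short a stretch. The limits of 5 peaks and 48.4 kb were taken from Ltbp1 itself, so this percentage is a description and no measure of rarity. The PDGFRα peak was the one nearest to the second start, 9.9 kb before it, at 75168284 to 75169378 (1094 bp), and it was annotated as down5k of ENSMUSG00000084025.

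After the second start lay 4 CD137 peaks and 1 PDGFRα peak inside the gene. A CD137 peak of 956 bp lay 17.3 kb behind it at 75195644 to 75196600. Further in, a PDGFRα peak (75274977 to 75276153, 1176 bp) and a CD137 peak (75277155 to 75278358, 1203 bp) were separated by 1002 bp, the smallest gap between the lists at any of the 10 genes. Gaps as small were found for 1.55% of CD137 peaks and 2.80% of PDGFRα peaks. The last CD137 peaks in the gene were at 75344506 to 75346098 (1592 bp) and 75385845 to 75386893 (1048 bp). Outside the gene lay a CD137 peak 37.6 kb before it (74967400 to 74968316, 916 bp) and a PDGFRα peak 15.5 kb after it (75407222 to 75408743, 1521 bp), both intergenic.

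The promoter windows, 250 bases before to 50 after a start, are printed here because the run of CD137 peaks lies between the starts of Ltbp1, and because Ltbp2, of the 4 genes with a promoter window in the table, was the only one with a unique peak over it. They are RefSeq sequences of GRCm38.p6, read 5′ to 3′ on the strand of the gene, with each CpG in capitals. Ltbp1 at its first start is chr17:75005279-75005578 (plus strand), Ltbp1 at its second start is chr17:75178531-75178830 (plus strand) and Ltbp2 is chr12:84876442-84876741 (minus strand).
Ltbp1, first start: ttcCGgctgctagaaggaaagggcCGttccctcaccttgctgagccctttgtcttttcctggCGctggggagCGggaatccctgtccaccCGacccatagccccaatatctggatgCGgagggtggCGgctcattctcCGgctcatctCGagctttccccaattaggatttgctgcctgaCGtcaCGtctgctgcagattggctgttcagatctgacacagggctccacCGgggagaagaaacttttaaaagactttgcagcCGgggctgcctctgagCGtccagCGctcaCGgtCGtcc
Ltbp1, second start: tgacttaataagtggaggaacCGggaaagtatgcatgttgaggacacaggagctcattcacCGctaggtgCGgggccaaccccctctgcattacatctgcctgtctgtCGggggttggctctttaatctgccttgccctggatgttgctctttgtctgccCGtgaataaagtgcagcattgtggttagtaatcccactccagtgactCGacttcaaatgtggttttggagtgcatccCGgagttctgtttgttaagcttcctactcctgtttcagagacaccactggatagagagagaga
Ltbp2: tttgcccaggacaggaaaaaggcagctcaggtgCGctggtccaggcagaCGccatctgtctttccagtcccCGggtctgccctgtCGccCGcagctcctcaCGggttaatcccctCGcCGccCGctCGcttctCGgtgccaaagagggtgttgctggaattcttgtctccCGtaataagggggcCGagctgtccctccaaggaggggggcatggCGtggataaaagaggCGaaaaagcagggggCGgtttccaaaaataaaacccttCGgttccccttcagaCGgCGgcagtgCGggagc

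The first Ltbp1 window holds 17 CpGs with a GC content of 58.7%, and the second 7 CpGs with 50%. No unique peak overlapped either. The Ltbp2 window holds 20 CpGs with a GC content of 61.0%, where the median of 32851 promoter windows was 7 CpGs and the upper quartile 20. Of the other genes, Fbn1 (14 CpGs) and Fbln5 (24 and 8 CpGs in a pair of windows) were in the promoter table, and Eln, Fbn2, Lox, Loxl1, Loxl2 and Mfap5 were not. On either strand, none of these 6 windows holds the full glucocorticoid receptor palindrome (AGAACA, any 3 bases, TGTTCT), its looser form (GNACA, any 3 bases, TGTNC, which every full palindrome also holds), the TEAD motif GGAATG or the AP-1 motif TGANTCA. Of all promoter windows of 300 bases, 0.00913%, 0.475%, 14.7% and 7.81% hold them. The letters are absent from these windows, which says nothing of binding there or elsewhere.

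Ltbp2 encodes a binding protein that attaches to fibrillin microfibrils without binding latent TGF-beta. The gene (chromosome 12, 84783212 to 84876558, minus strand, 93.3 kb) had 3 CD137 peaks and 1 PDGFRα peak. The PDGFRα peak (84875350 to 84877451, 2101 bp) covered the whole promoter window printed above and reached 960 bp upstream and 1141 bp downstream of the start at 84876491. The deposited list gives it the class up5k of ENSMUSG00000092130 and not the ID of Ltbp2. Over both lists, 4.99% of CD137 peaks and 5.90% of PDGFRα peaks overlapped a promoter window by at least 1 bp. The CD137 peaks of Ltbp2 lay in exons under ENSMUSG00000002020, 21.6 kb (84853891 to 84855926, 2035 bp) and 69.7 kb (84806155 to 84807556, 1401 bp) from the upstream end. A further CD137 peak lay 84.5 kb beyond the 3′ end, inside Syndig1l (84698164 to 84699229, 1065 bp, down5k).

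**Figure D3:**
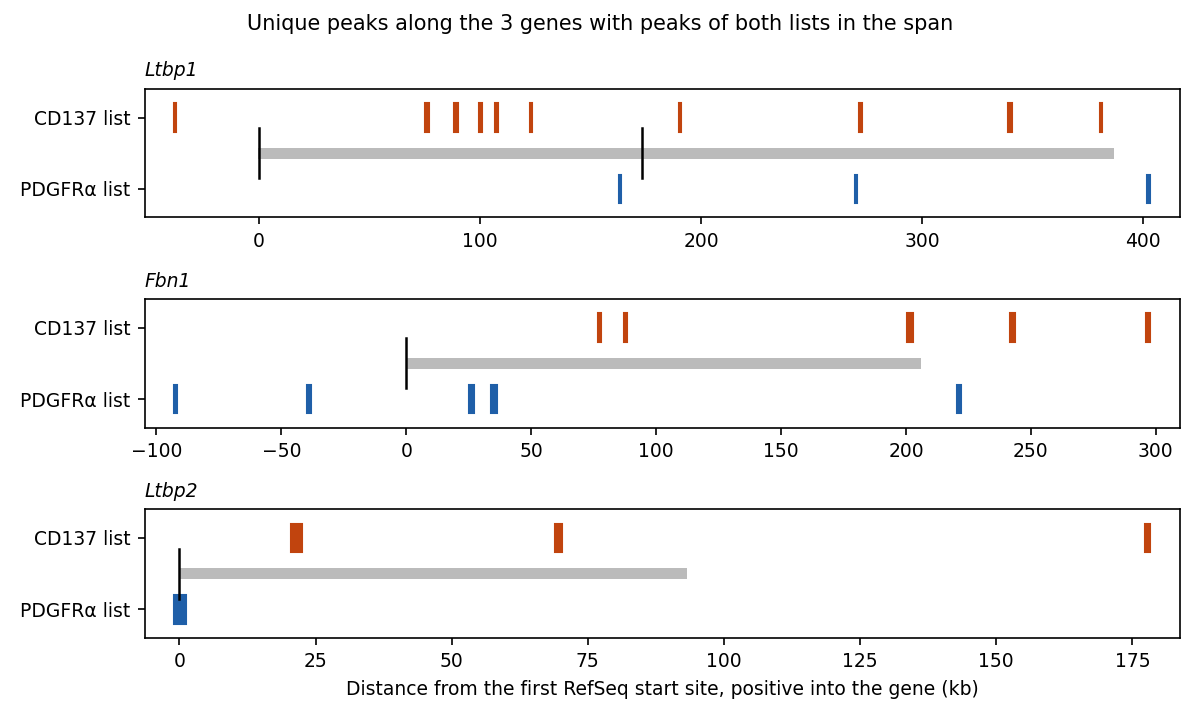
Unique peaks along Ltbp1, Fbn1 and Ltbp2, the 3 genes with peaks of both lists in the span, by distance in kb from the first RefSeq start and with the direction of transcription to the right. Grey bars are gene spans, black lines RefSeq starts, red boxes CD137 peaks and blue boxes PDGFRα peaks, drawn to scale. A run of 5 CD137 peaks lies between the starts of Ltbp1, the PDGFRα peaks inside Fbn1 lie 26.2 and 35.1 kb from its upstream end, and a PDGFRα peak covers the start of Ltbp2.

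Fbln5 encodes fibulin-5, which tethers elastin to microfibrils and to integrins, and Mfap5 encodes a small microfibril-associated glycoprotein that is also used as a marker of adipose stromal progenitors. Neither had a peak in its span. Fbln5 (chromosome 12, 101746565 to 101819119, minus strand) had 1 PDGFRα peak, 49.0 kb beyond its 5′ end at 101867489 to 101868751 (1262 bp), inside Trip11. Its nearest CD137 peak was 235.2 kb away. Mfap5 (chromosome 6, 122513584 to 122529290) had 1 CD137 peak of 1302 bp, 2.6 kb outside its higher-coordinate end at 122531233 to 122532535, classed down5k under ENSMUSG00000030116. The nearest PDGFRα peak was 211.1 kb away. Genes with PDGFRα peaks only, as Fbln5 and Lox, were 12.6% of all protein-coding genes, and those with CD137 peaks only, as Mfap5, were 23.4%.

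The 3 lysyl oxidase genes had 2 CD137 and 2 PDGFRα peaks within 100 kb. Their enzymes oxidise lysines of elastin and collagen so that the chains can join. None of the 3 had a peak of either list in its span, which is the usual state, found for 75.9% of all protein-coding genes. Lox (chromosome 18, 52516060 to 52529867) had 1 PDGFRα peak, narrow at 916 bp and intergenic, 41.1 kb away at 52570500 to 52571416, with Lox as the nearest gene. Its nearest CD137 peak lay beyond the window at 133.8 kb. Loxl1, whose product binds fibulin-5 and deposits elastin (chromosome 9, 58287723 to 58313212), had 2 CD137 peaks and 1 PDGFRα peak. A CD137 peak of 1808 bp lay 4.4 kb outside its lower-coordinate end (58282409 to 58284217, up5k, ENSMUSG00000032334), and the PDGFRα peak of 1340 bp lay 13.7 kb outside the other end (58326237 to 58327577, intergenic). The second CD137 peak, 41.7 kb away at 58354440 to 58355371 (931 bp, up5k), was nearest to Tbc1d21. Loxl2 (chromosome 14, 69608692 to 69695834, 87.1 kb) had no peak in the window, and its nearest were a CD137 peak 157.3 kb away and a PDGFRα peak 166.0 kb away, both classed intron.

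Of all 46 peaks, 24 lay in the span of a member and 22 outside, of which 11 were nearer to another protein-coding gene. The peaks farthest out within the window were those at 95.2 kb from Eln and 92.3 kb from Fbn1. The first beyond it were a CD137 peak 103.1 kb from Ltbp2 and a PDGFRα peak 103.7 kb from Fbln5. By class, the 31 CD137 peaks were 16 intron, 5 exon, 5 down5k, 3 up5k and 2 intergenic, and the 15 PDGFRα peaks were 7 intergenic, 5 intron, 2 down5k and 1 up5k, with no exonic peak. Intergenic peaks were 6.45% of the CD137 peaks here and 45.3% of the whole CD137 list, against 46.7% and 38.7% for PDGFRα. The windows are built around genes and the whole lists are not, so these percentages are not drawn from like sequence. Both lists share the windows, and their intergenic percentages differ from the whole lists in opposite directions. What underlies these class shares was not tested.

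The CD137 peaks were spread around the widths of their whole list, whereas the PDGFRα peaks lay more in the wide part of theirs. The CD137 peaks ranged from 794 to 2148 bp with a median of 1302 bp, and the whole CD137 list had a median of 1221 bp. The PDGFRα peaks ranged from 916 to 2489 bp with a median of 1521 bp. The whole PDGFRα list had a median of 1237 bp and an upper quartile of 1455 bp, so the median here was above that quartile. What underlies this was not tested. Peaks of 2000 bp or more numbered 3 of 31 and 2 of 15, where the whole lists had 4.94% and 5.52%. Of these 5 wide peaks, 3 lay in or near Fbn1 and 2 in Ltbp2. The 5 CD137 peaks in or within 100 kb of Fbn1 had a median of 1965 bp and the 5 PDGFRα peaks one of 1827 bp. These counts include peaks that are nearer to, or inside, other genes. In the span of Fbn1 the medians were 1558 bp for 3 CD137 peaks and 2158 bp for 2 PDGFRα peaks. The 10 CD137 peaks of Ltbp1 had a median of 1133 bp, and the 9 in its span one of 1203 bp. The widest, the PDGFRα peak of 2489 bp in Fbn1, stood at percentile 97.9 of its list. Width was the only size measure in the files and depends on the caller and the depth.

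**Figure D4:**
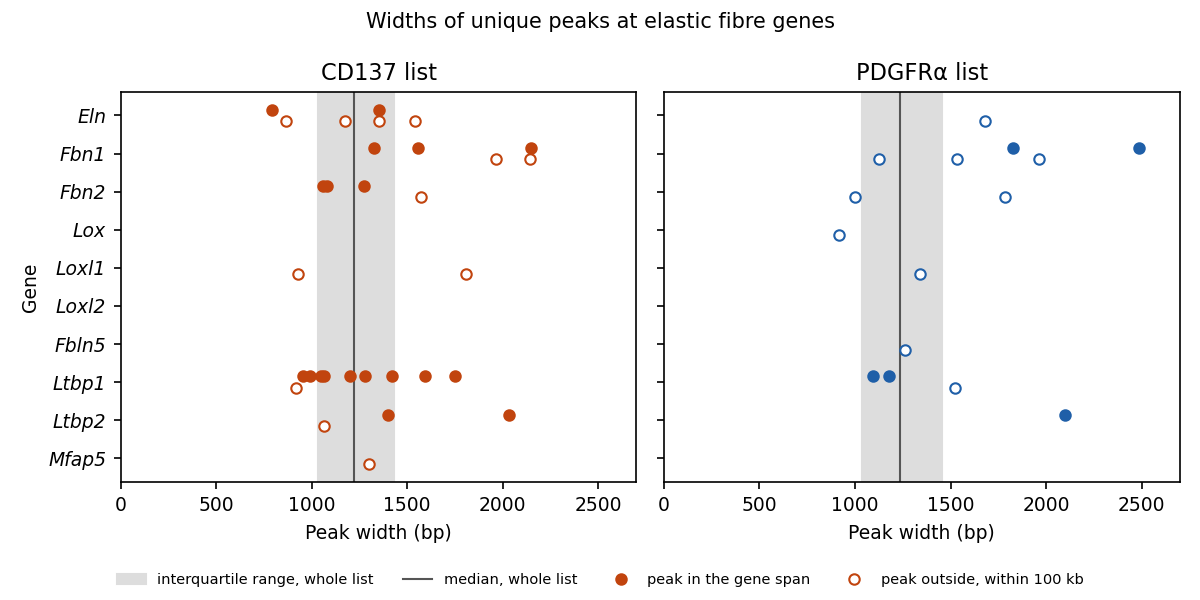
Width in bp of each unique peak at the 10 genes, CD137 list on the left and PDGFRα list on the right. Filled points are peaks in the gene span, open points peaks outside it within 100 kb, grey bands the interquartile range and lines the median of each whole list. The 5 peaks of 2000 bp or more, up to 2489 bp, lie in or near Fbn1 and in Ltbp2. Among them, the CD137 peak of 2143 bp lies 36.9 kb outside Fbn1 and is nearest to Dut. Most Ltbp1 peaks lie in or below the bands.

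Among 20 further genes of elastic fibres and their TGF-beta ligands, 14 had peaks of both lists within 100 kb, 4 had CD137 peaks only (Emilin3, Ltbp3, Adamtsl4 and Tgfb1), Loxl4 had PDGFRα peaks only and Loxl3 had none (Emilin3, Ltbp3, Adamtsl4 and Loxl3 are named after their values were seen). Over all protein-coding genes, 43.4% had peaks of both lists, 23.4% CD137 peaks only, 12.6% PDGFRα peaks only and 20.6% none. The 20 genes held 42 CD137 and 32 PDGFRα peaks, 12 and 7 of them in the spans. The CD137 share of all peaks within 100 kb of a protein-coding gene was 62.3%, and of those in spans 61.9%. CD137 peaks were thus at 18 of 20 genes and PDGFRα peaks at 15 of 20, beside backgrounds of 66.8% and 56%. Thsd4, which encodes an ADAMTS-like protein that binds fibrillin-1, had the most, with 7 CD137 and 3 PDGFRα peaks. The fibulin gene Fbln2 had 2 CD137 and 6 PDGFRα peaks, and Fbln1 had 4 and 1. Emilin2, of a family of elastin-associated glycoproteins, had 3 and 4, with both peaks in its span from the PDGFRα list. Efemp1 had 4 and 2, Adamtsl5 3 and 2, and Tgfb2 2 and 2. Emilin1 had 1 and 3, and the binding protein gene Ltbp4 2 and 2. Tgfb3 had 3 and 1, Efemp2 and Adamts10 2 and 1 each, Mfap2 and Mfap4 1 and 1 each, Tgfb1 2 and 0, and the lysyl oxidase gene Loxl4 0 and 2. Counted with the members, 5 lysyl oxidase genes had 2 CD137 and 4 PDGFRα peaks within 100 kb. None had a peak in its span, as for 75.9% of all protein-coding genes.

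Markers of adipocytes and their progenitors and of other cell types were counted in the same way. Tnfrsf9, the gene of CD137, was not among them. All 10 adipocyte and progenitor markers had a unique peak within 100 kb, with 23 CD137 and 7 PDGFRα peaks in all, beside a background of 79.4% of protein-coding genes with a peak of either list. Smooth muscle markers, whose cells also make elastin, had 5 and 6 at 4 of 4 genes, endothelial markers 11 and 4 at 4 of 4, mesothelial markers 4 and 12 at 4 of 4, and early embryo markers 10 and 4 at 4 of 5. These gene counts are near that background. For the split between the lists, the reference is a CD137 share of 62.3% of all peaks within 100 kb of a protein-coding gene. Of the mesothelial peaks, 8 PDGFRα peaks lay at Wt1. Unique peaks within 100 kb do not tell which cells were present, and the part of other cell types in the peaks at elastic fibre genes was not tested.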

How the data were processed

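Each of 2 libraries has 1 peak list. Per the file headers, the deposited lists give positions, an Ensembl ID and a class, and no other unit; the authors call the peaks unique. The submitters' processing notes name CASAVA 1.8 and mm10. The aligner, peak caller, threshold, any transposase shift, the rule for unique peaks and the base from which starts count are steps not given in the sources used. Gene spans came from RefSeq GRCm38.p6, which is mm10, and were matched by symbol (10 of 10, and 20 of 20 pathway genes). Strands came from the RefSeq promoter table, which holds 4 of the 10 genes. Distances run from a peak's centre to the gene span, and widths are end minus start. Peaks of a gene whose windows hold other genes were kept. All genes of the set are named, and pathway genes with at least 2 peaks. The classes were checked against strand at peaks with 1 RefSeq gene within 6 kb. Intervals are exact binomial (Clopper-Pearson, 95%) and cover only counting error. There was 1 library in each group, so no test was made and no p-value is given. The members and lists were chosen with earlier results of these data known. Counting was tested on simulated peaks. Tools were matplotlib 3.10.9, scipy 1.17.1, pandas 2.3.3, numpy 2.4.6 and Python 3.11.15.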

Additional observations from a re-analysis of the deposited data

How the results depend on the processing

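No paired analysis was possible because each population has a single library, and no library could be left out. The 19 alternatives changed the window, the placing of peaks, the peaks used or the members, and the depth is unknown. With peaks in the gene span only, the counts were 19 CD137 and 5 PDGFRα peaks, and 3 genes had a PDGFRα peak. Within 5 kb there were 5 PDGFRα peaks at 3 genes, and the CD137 share was 81.5%. Within 200 kb there were 48 CD137 peaks. The wider 50% of each list left 18 CD137 peaks, and the 8002 widest CD137 peaks left 19. The CD137 share was between 55.9% (8002 widest) and 81.5%. With the 8002 widest, both lists are of equal size, so 55.9% cannot be set beside the 64.4% of all peaks. A background share within 5 kb of all genes was not counted. The number of genes with a CD137 peak was between 5 and 9. Leaving out each gene in turn kept all counts within 1.5 times.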

Other observations

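The class up5k depends on coordinate order over both lists and not only at the elastic fibre genes. At protein-coding genes with no other RefSeq gene within 6 kb, 99.5% of up5k and down5k peaks on the lower-coordinate side of minus-strand genes were up5k, and 8.27% on their higher-coordinate side, where transcription starts. At plus-strand genes the percentages were 100% and 3.45%. Of up5k peaks, 21.6% in the CD137 list and 22.6% in the PDGFRα list overlapped a RefSeq promoter window, and of down5k peaks 18.7% and 16.3%. Over all classes, 722 CD137 peaks (4.99%, exact 95% interval 4.64 to 5.35%) and 472 PDGFRα peaks (5.90%, 5.39 to 6.44%) overlapped a promoter window.

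Peaks of opposite lists nearly touched at 2 other genes of the elastic fibre list. At Mfap4, a microfibril-associated protein gene, a CD137 peak (chromosome 11, 61482909 to 61484036) ended 85 bp before a PDGFRα peak (61484121 to 61486335), and 18 CD137 peaks in the whole list, this one included, were as close to a PDGFRα peak. In the flank of Emilin2, inside Lpin2, a PDGFRα peak (chromosome 17, 71194562 to 71195800) ended 7 bp before a CD137 peak (71195807 to 71197143), a gap that 2 CD137 peaks have in all, this one included. Of the 20 pathway genes, 15 were in the promoter table, and the rest could not be checked for a peak over their promoter. Among the 15, Fbln1 alone had a unique peak over its own promoter, a CD137 peak of 2834 bp (chromosome 15, 85205645 to 85208479).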
